A study of Mus musculus with 3 samples.

Results

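The genes that encode the variable (V), diversity (D) and joining (J) segments of the T cell receptor beta chain were examined in activated regulatory T cells (Treg). Members were all genes whose symbol starts with Trbv, Trbd or Trbj, which gave 51 of 55536 annotated mouse genes: 35 Trbv, 2 Trbd and 14 Trbj. Of the Trbv genes, 22 are annotated as TR_V_gene and 13 as TR_V_pseudogene. The Trbj genes form 2 clusters of 7, and 1 of them, Trbj2-6, is annotated as a pseudogene.

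PolyA RNA was sequenced in 3 libraries from 1 male mouse aged 4 months. Its strain, Foxp3CreERT2 x Rosa26YFP, carries an inducible recombinase driven from Foxp3 and a fluorescent reporter. All 3 libraries carry both alleles and are labelled technical replicates 1, 2 and 3 of 1 biological replicate, so their spread says nothing about other animals. There is 1 group and no control, so levels, shares and the spread between libraries are given and no contrast. The labels give bone marrow haematopoietic cells as the origin, and the sources used here do not give the sort. The libraries held 10981924, 9700630 and 6667391 expected counts (estimated fragments per gene) in replicates 1, 2 and 3.

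A T cell joins 1 V, 1 D and 1 J segment of the beta locus by V(D)J recombination in the thymus, and the joined exon is then spliced to a constant gene, Trbc1 or Trbc2. The Rag1 and Rag2 proteins cut the DNA, end-joining enzymes seal it, and the enzyme encoded by Dntt adds bases at the joints. The V segment forms most of the antigen-binding domain, while D and J with the added bases form its most variable loop. Each J cluster lies just before its own constant gene, so a Trbj1 segment is spliced to Trbc1 and a Trbj2 segment to Trbc2. In bulk RNA a V gene's share follows both how many cells carry it and how much receptor RNA each cell holds, and fewer cells cannot be told apart from less RNA per cell.

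The members span 667 kb of mouse chromosome 6 on mm10, from 40891229 to 41558452. All but Trbv31 lie on the forward strand. Trbv31 (41557691 to 41558452) lies beyond the constant genes on the reverse strand and is joined by inversion. Sequences below are those of the deposited tables' annotation release, GENCODE M21 on GRCm38 (mm10), and are shown on the sense strand.

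The 2 D segments are G-rich and differ in length, with 12 bases in Trbd1 and 14 in Trbd2. They are shown whole because their length bears on how the tables counted them.
Trbd1: gggacagggggc
Trbd2: gggactgggggggc

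J segments end the antigen-binding domain with a phenylalanine-glycine-X-glycine stretch. The sense strand was searched for the codon pattern TTNGGNNNNGGN, which 11 of 14 Trbj segments hold, and which 0.430% of 21870 protein-coding genes hold in the last 50 bases of a transcript. Trbj2-7 and Trbj2-1, the most used J segments, are shown with the pattern in capitals. Trbj2-2, the least used in 1 of the 2 tables read for J usage, follows, beside the 3 segments without the pattern.
Trbj2-7: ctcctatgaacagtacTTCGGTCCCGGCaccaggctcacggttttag
Trbj2-1: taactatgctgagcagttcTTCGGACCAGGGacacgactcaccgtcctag
Trbj2-2: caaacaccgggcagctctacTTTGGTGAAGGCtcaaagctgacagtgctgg
Trbj1-6: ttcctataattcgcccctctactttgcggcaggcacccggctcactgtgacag
Trbj1-7: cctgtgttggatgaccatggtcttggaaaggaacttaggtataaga
Trbj2-6: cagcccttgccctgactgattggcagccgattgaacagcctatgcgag

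V segments end with a cysteine codon just before the joint. The letters TGTGC (that codon and the first bases of the next) were searched on the sense strand in the last 40 bases of each V transcript. They were found in 19 of 22 TR_V_gene segments and 7 of 13 pseudogenes, against 3.78% of 21870 protein-coding genes in the same window. The ends are shown for the most used V gene, its 2 closest relatives, the Trbv12 genes, the V gene first by counts, and Trbv24, the 1 pseudogene with a mean of at least 10 counts. Capitals mark TGTGC and, in Trbv24, a TAG stop codon 6 bases before it in the same frame.
Trbv13-2: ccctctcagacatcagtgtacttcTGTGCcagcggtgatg
Trbv13-1: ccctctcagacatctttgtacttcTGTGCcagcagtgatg
Trbv13-3: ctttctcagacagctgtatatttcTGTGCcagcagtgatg
Trbv12-1: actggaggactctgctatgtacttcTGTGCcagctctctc
Trbv12-2: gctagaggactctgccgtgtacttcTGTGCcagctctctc
Trbv3: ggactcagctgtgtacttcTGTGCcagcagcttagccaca
Trbv24: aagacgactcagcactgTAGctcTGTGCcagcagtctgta

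In-frame stops were searched only in segments where TGTGC was found. In the 90 bases before it, 0 of these 19 TR_V_gene segments had a stop, and 5 of these 7 pseudogenes had at least 1. Related V genes could share reads. Over the last 250 bases, Trbv13-2 and Trbv13-3 were 91.2% identical, Trbv12-1 and Trbv12-2 88.0%, and Trbv13-1 and Trbv13-2 87.2%, against a median of 52.1% over 231 pairs of TR_V_gene segments. Windows of 31 bases that also occur in another gene made up 11.0% of Trbv13-2 and 11.3% of Trbv13-3, so the split within the Trbv13 and Trbv12 subgroups is less certain than their sums. For Trbv4 and Trbv5 the shares were 73.6% and 78.7%, all with the overlapping transcript 5830405F06Rik, which was itself given 11.1, 19.9 and 13.1 expected counts.

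The cells carried transcripts of nearly the whole set of annotated functional V genes. Of the 22 TR_V_gene members, 21 stood above 3 counts in each of the 3 libraries, and Trbv21 had 3, 0 and 3 counts. Summed Trbv expected counts were 5453, 4378 and 2666, which is 497, 451 and 400 CPM (counts scaled to a common library total; 449 ± 48.4, SD, n = 3). In TPM, which corrects for effective length, the Trbv genes summed to 2852, 2725 and 2143 and the constant genes Trbc1 and Trbc2 to 6157, 5475 and 4307. Both sums were highest in replicate 1 and lowest in replicate 3. Their ratio moved less, at 46.3, 49.8 and 49.8 Trbv TPM per 100 Trbc TPM. The ratio depended on the table, with 21 ± 1.32 Trbv counts per 100 Trbc counts by expected counts, 32.2 ± 1.40 in the second transcript table, and 76.3 ± 1.44 in the gene table on annotation release M4.

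Trbv13-2, named Tcrb-V8.2 in older nomenclature, had the highest share of Trbv TPM, at 12.6%, 11.9% and 10.2% in replicates 1, 2 and 3 (11.5% ± 1.22, SD, n = 3). It was the 1 V gene that ranked first by TPM in every library. Trbv3 came second with 8.73%, 7.63% and 8.44% (8.27% ± 0.57), and no library of Trbv3 reached the lowest library of Trbv13-2.

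Trbv12-1 held 5.73%, 6.91% and 9.22% of Trbv TPM, and its value in replicate 3 passed every library of Trbv3. Trbv15 (6.69% ± 0.46), Trbv13-3 (6.69% ± 0.89), Trbv13-1 (6.57% ± 1.14) and Trbv5 (6.43% ± 1.58) followed within 1 SD of each other. Trbv16 (5.36% ± 0.69), Trbv1 (5.29% ± 0.38), Trbv19 (5.21% ± 0.76) and Trbv12-2 (5.20% ± 0.50) could likewise not be ordered. These 11 genes, each above 5% of Trbv TPM, made up 74.5% of it.

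Between 2% and 5% lay 6 genes, in falling order Trbv26 (4.32% ± 0.60), Trbv31 (3.93% ± 0.15), Trbv4 (3.59% ± 0.17), Trbv20 (3.43% ± 0.59), Trbv2 (3.13% ± 0.59) and Trbv17 (2.77% ± 0.82). Below 2% were Trbv29 (1.24% ± 0.23), Trbv23 (1.04% ± 0.032), Trbv14 (0.853% ± 0.065), Trbv30 (0.448% ± 0.11) and Trbv21 (0.087% ± 0.10). Trbv13-2 stood 25.8-fold above Trbv30 by mean TPM share. The gap below Trbv17 was clear of the spread: its lowest library (2.21%) lay above the highest library of Trbv29 (1.5%). Of the 21 neighbouring pairs in this order, 5 had library ranges that did not overlap, and the other 16 did.

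**Figure D1:**
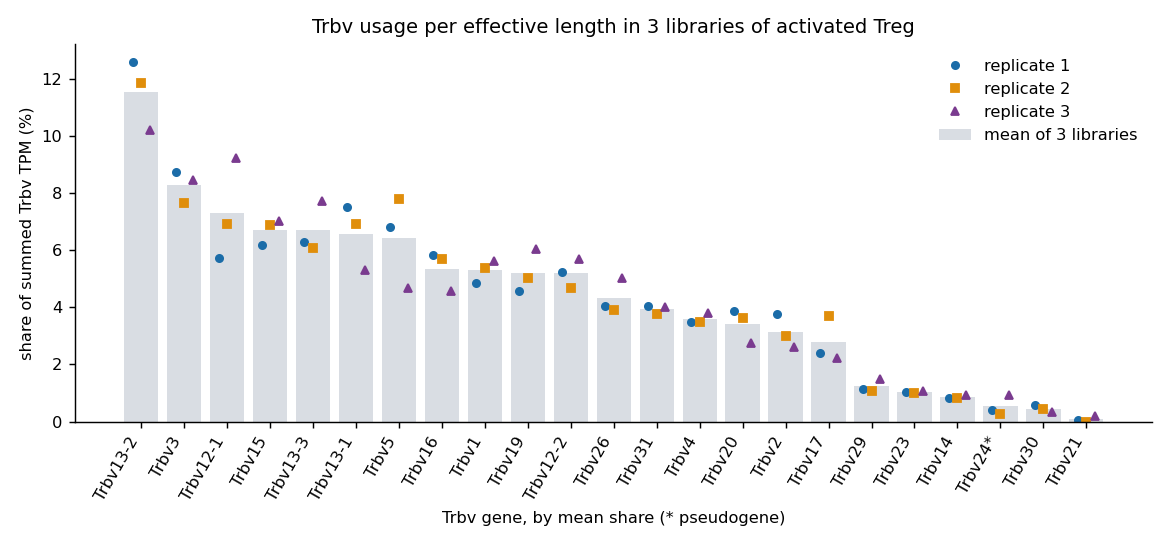
Share of summed Trbv TPM (percent) for each Trbv gene with a mean count share above 0.05%, ordered by the mean of 3 libraries (bars), with a point for each library. Trbv13-2 stands between 10.2% and 12.6%, and a step separates Trbv17 from Trbv29 and the genes after it.

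Expected counts that were not divided by length gave another order at the top, because the transcripts differ in length. Trbv3 then led with 11.3%, 9.91% and 10.7% of Trbv counts (10.6% ± 0.70), and Trbv19 was second with 8.29%, 9.07% and 10.6% (9.31% ± 1.16). Trbv13-2 followed them, at 9.61%, 9.20% and 7.84% (8.88% ± 0.93).

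Trbv12-1 had 5.67%, 6.90% and 9.04% of Trbv counts, Trbv15 5.56%, 6.28% and 6.30%, and Trbv1 5.45%, 6.05% and 6.19%. Trbv5 had 6.08%, 7.02% and 4.17%, and Trbv2 had 6.75%, 5.32% and 4.50%. The list of 10 closed with Trbv16, at 6.02%, 5.89% and 4.65%, and Trbv13-1, at 6.27%, 5.6% and 4.46%. Among these 10 genes, Trbv12-1, Trbv19, Trbv15 and Trbv1 had their highest share in replicate 3. Trbv2, Trbv13-1, Trbv13-2, Trbv16 and Trbv3 had theirs in replicate 1. Shares of a common total cannot all rise together. In CPM, as used below for the test between libraries, Trbv12-1 and Trbv19 were also highest in replicate 3. Trbv15 and Trbv1 were instead lowest there, at 25.1 and 24.7 CPM. The 95% Wilson intervals of the 3 libraries, which cover counting error only, shared no common value for 7 V genes: Trbv12-1, Trbv13-1, Trbv5, Trbv19, Trbv2, Trbv17 and Trbv24.

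The subgroup sums are free of the split between the related genes within each subgroup. The 3 Trbv13 genes summed to 26.3%, 24.9% and 23.2% of Trbv TPM (24.8% ± 1.57). The Trbv12 genes summed to 11.0%, 11.6% and 14.9% (12.5% ± 2.12). Trbv13 was lowest and Trbv12 highest in replicate 3, and the ranges of the 2 subgroups did not overlap.

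The other tables gave much the same order over V genes. Across 22 genes, expected-count shares and second-table shares had Pearson's r of 0.974 and Spearman's rho of 0.945, and across 21 genes the M4 counts gave 0.949 and 0.919. These correlations run across genes within the same libraries and describe the tables only. Trbv3 and Trbv13-2 were the first and second V genes by counts in the second table (9.91% and 8.91%), and Trbv13-2 and Trbv3 were level in the M4 table (10% and 9.91%). Trbv19 went from 9.31% of expected counts to 7.26% in the second table, 6.54% in the M4 table and 5.21% of TPM. For the V genes as a whole the tables disagreed on level, since counts per expected count were 2.11 ± 0.082 in the second table and 3.24 ± 0.067 in M4, against 1.38 and 1.03 over all genes.

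Usage was broad, with no V gene dominating. The effective number of V genes, the exponential of the Shannon entropy of the count shares, is the number of equally used genes that would give the same diversity. It was 17.51, 17.55 and 17.54 in the 3 libraries (17.5 ± 0.020). Pielou's evenness, which is 1 for equal use, was 0.889, 0.902 and 0.901, and the 5 leading genes of each library held 42.2%, 42.1% and 44.5% of counts. The effective number stayed near the same value while single genes shifted, and it fell to 13.1 ± 0.080 when subgroup members were summed. At the depth of replicate 3, 23.8 V genes would have been seen in replicate 1 and 23.5 in replicate 2, against 24 seen in replicate 3, so at equal depth the libraries differed by less than 1 V gene.

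Pseudogenes contributed little. Of the 13 V pseudogenes, 9 had 0 counts in all libraries, which allows up to 3 counts each, and 3 (Trbv7, Trbv8 and Trbv22) had at most 2 counts in any library. Trbv24 was the exception, with 17, 10 and 20 expected counts and 33, 31 and 41 counts in the second table. Its mean share of Trbv TPM (0.538% ± 0.35) lay between those of the annotated functional genes Trbv30 and Trbv14, although its end holds the TAG codon shown above. The pseudogene share of Trbv counts was 0.348% (95% Wilson interval 0.223 to 0.544), 0.297% (0.174 to 0.507) and 0.825% (0.546 to 1.25). Replicate 3 was the highest, and its interval began just above those of the other two.

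Position along the locus went with usage in stretches. Trbv1, at the far upstream end, held 5.29% ± 0.38 of Trbv TPM. The 4 genes from Trbv2 to Trbv5 held 21.4% ± 1.69, and the 6 pseudogenes from Trbv6 to Trbv11 held 0.019% ± 0.018. The stretch from Trbv12-1 to Trbv20, with 11 functional genes and 2 pseudogenes, held 61.0%, 62.2% and 61.6% (61.6% ± 0.60). The 10 genes from Trbv21 to Trbv30, which lie nearest to the D and J segments on the upstream side and include 5 functional genes, held 7.76% ± 1.29. Trbv31, the inverted gene downstream of the constant genes, held 3.93% ± 0.15.

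The median TPM per functional gene was 130.4 in the Trbv2 to Trbv5 stretch, 139.6 in the Trbv12-1 to Trbv20 stretch and 26.8 in the Trbv21 to Trbv30 stretch. Trbv26, with 116, 106 and 107 TPM, was the 1 gene of that last stretch above 100 TPM in every library. Across the 21 functional V genes upstream of Trbd1, TPM share and signed distance had r of -0.465 and rho of -0.553, so shares were lower nearer to the D segments. This is a description across genes of shared libraries, with no test.

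**Figure D2:**
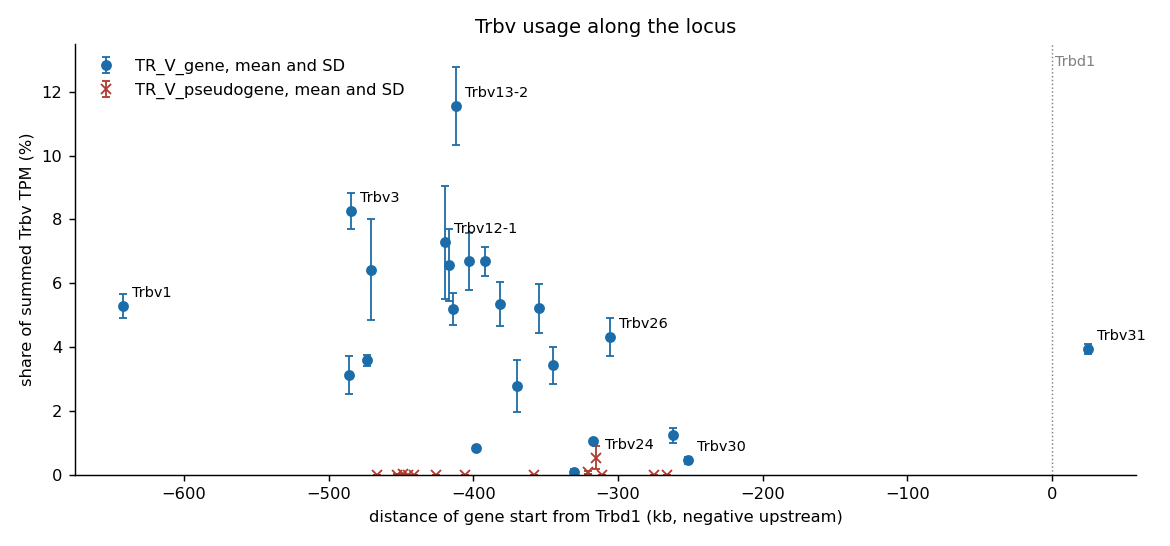
Mean share of summed Trbv TPM (percent, with SD over 3 libraries) against the distance of each V gene's start from Trbd1 in kb, for functional genes (circles) and pseudogenes (crosses). The highest shares lie in the stretch from Trbv12-1 to Trbv20, and Trbv31 is the only V gene downstream of Trbd1.

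Whether the libraries differed beyond sampling noise was tested for each of 12997 genes with a mean of at least 10 counts. Each gene's counts were set against TMM-scaled library sizes by chi-square (2 degrees of freedom), with Benjamini-Hochberg adjustment over all these genes. Of the 51 members, 22 were tested, namely 21 TR_V_gene members and Trbv24. The test called 11 of the 22 at an adjusted p below 0.05, against 65.3% of all genes tested. Such a test calls more deeply counted genes more readily. The median ratio of the highest to the lowest CPM was 1.29 over the 22 members (range 1.04 to 2.93) and 1.44 over all genes tested. Replicate 3 had the lowest CPM for 13 of the 22, and replicate 1 the highest for 14.

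Trbv2 had 33.9, 23.8 and 17.9 CPM, the strongest case by this test (adjusted p = 1.41e-09, chi-square test across all genes). Trbv5 had 30.6, 31.4 and 16.6 CPM, with replicate 3 apart from the other two. By the same chi-square test across all genes its adjusted p was 2.51e-08, and 0.824 when replicate 3 was left out. Trbv13-1, Trbv13-2, Trbv3, Trbv16, Trbv17, Trbv20, Trbv24, Trbv12-1 and Trbv31 were also called, with adjusted p between 8.29e-07 and 0.0381. Besides Trbv5, Trbv3 lost its call without replicate 1, Trbv17 without replicate 2, and Trbv13-2, Trbv16 and Trbv20 without replicate 3. Each of 3 more genes lost it under 2 of the 3 omissions. In adjusted p of the same chi-square test, these were Trbv12-1 (0.122 without replicate 1 and 0.462 without 3), Trbv24 (0.0807 without 2 and 0.443 without 3) and Trbv31 (0.832 without 1 and 0.0899 without 2). Trbv12-1 also missed the threshold in the second table (0.100), and Trbv31 with total-count scaling (0.0631). With no filter on counts, both missed it by the same chi-square test (adjusted p of 0.0649 for Trbv12-1 and 0.0696 for Trbv31). In that setting 9 of 26 members were called, against 32.9% of all genes. Trbv2 and Trbv13-1 were called under every omission. Trbv19, second by counts, was the most even of the 22, with a ratio of 1.04 between its highest and lowest CPM.

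When each library was scaled to its own Trbv total, so that usage within the family was tested, 7 of 22 members were called, against 70.9% of all genes under that scale. Trbv12-1 led by adjusted p, at 9.02e-07, followed by Trbv5 at 3.07e-05 and Trbv17 at 0.000172. Trbv2, Trbv24, Trbv13-1 and Trbv19 were the other four, between 0.000258 and 0.00918. In the second transcript table, 27 of 36 members passed, against 60.4% of all genes there. These 36 were the 22 V genes and 14 Trbj genes, which had 0 counts in the main table. The members' share lay below that of all genes in the main table and above it in the second. The sets differ by the Trbj genes, but calls also rose among the 22 V genes alone. Of these V genes, 9 gained a call in the second table and 1 lost it. Once the spread between libraries was added to the variance as edgeR's trended dispersion, 0 of 22 members were called, and 0 had an unadjusted p below 0.05, against 1.32% of all genes called. With both the Trbv scale and the dispersion the count was also 0 of 22, against 2.73% of all genes. These libraries themselves gave the dispersion, so it includes the differences under test.

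**Figure D3:**
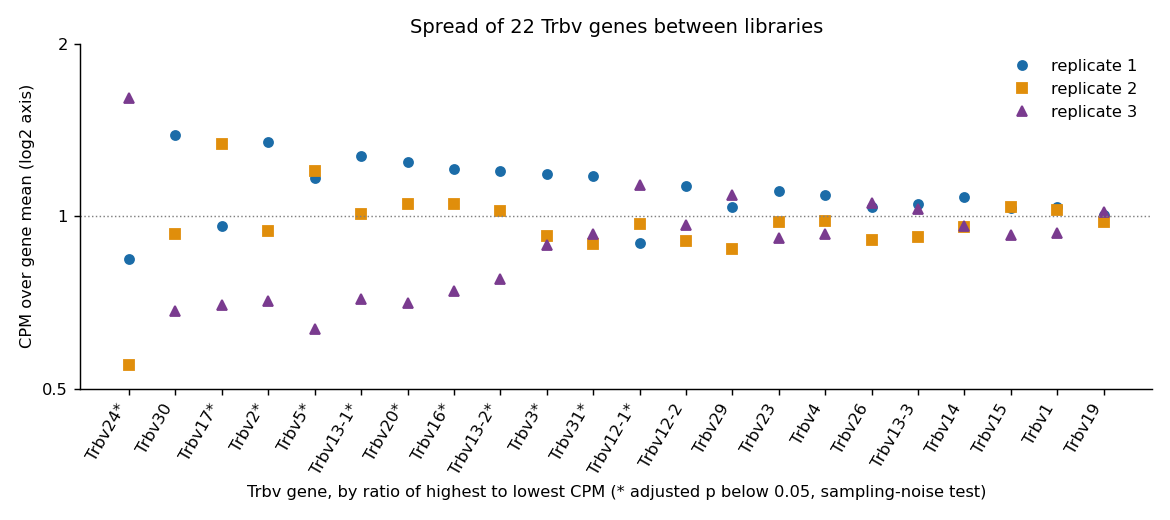
CPM of 22 Trbv genes in each library, divided by the gene's mean over 3 libraries (log2 axis), ordered by the ratio of the highest to the lowest CPM; stars mark the 11 genes called by the sampling-noise test. Replicate 3 is the lowest of 3 for 13 genes and the highest for 5, among them Trbv24, and the genes at the right end lie close to 1.

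Between pairs of libraries, the summed difference in V usage (the share of Trbv counts that would have to move to make 2 libraries equal) was 5.63% for replicates 1 and 2, 10.9% for 1 and 3, and 9.59% for 2 and 3. Replicate 3 stood apart over all genes as well, where the chi-square per degree of freedom was 11.4 for replicates 1 and 2, 30.7 for 1 and 3 and 30.3 for 2 and 3. The largest single shifts were 3.37 points for Trbv12-1 between replicates 1 and 3 and 2.85 points for Trbv5 between 2 and 3. Summed TPM of 4 plasma cell markers was 96.7, 48.3 and 151, of 5 B cell markers 101, 67.4 and 83.9, and of 5 erythroid markers 795, 5.30 and 23.4. Their part in these V gene differences was not tested.

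The D and J genes stood at 0 in the main gene table, where all 16 have an effective length of 0. J usage was therefore read from the second transcript table, which gave the Trbj genes 1161, 883 and 465 counts, and again from the M4 table, which lists 13 Trbj genes, without Trbj2-6, and gave them 4031, 3079 and 1684. These tables count in different ways, from reads and an index or from genome alignments. Each J segment holds only 46 to 53 bases, and the depth per J gene is small.

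All 14 J segments were counted in every library, and none took a dominant share. Trbj2-7 had the highest mean share, at 11.5%, 12% and 11.8% of Trbj counts in the second table (11.8% ± 0.28) and 16.4%, 16.0% and 17.4% in the M4 table (16.6% ± 0.71). Trbj2-1 came second, with 11.2%, 7.59% and 12.5% in the second table (10.4% ± 2.53) and 12.5% ± 1.49 in the M4 table. Trbj2-1 was lowest in replicate 2 in both tables.

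In the second table the other cluster 2 genes were Trbj2-5 (9.14% ± 0.56), Trbj2-3 (7.93% ± 0.79), Trbj2-4 (6.62% ± 1.27), Trbj2-6 (5.64% ± 1.09) and Trbj2-2, the lowest of all J genes (3.69% ± 0.26). In cluster 1 they were Trbj1-4 (8.56% ± 1.22), Trbj1-6 (7.18% ± 0.37), Trbj1-3 (6.63% ± 0.28), Trbj1-2 (6.43% ± 2.15), Trbj1-5 (6.0% ± 1.24), Trbj1-1 (5.85% ± 0.97) and Trbj1-7 (4.16% ± 0.33). Trbj1-2 moved most within its cluster, with 6.37%, 8.61% and 4.30%.

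The 3 segments without the TTNGGNNNNGGN pattern were not missing from the RNA. Trbj1-6, whose printed sequence carries another version of the stretch, held 82, 67 and 32 counts in the second table. In the same table Trbj1-7 held 45, 36 and 21. The pseudogene Trbj2-6 held 60, 43 and 32 there, more than the functional gene Trbj2-2 with 40, 35 and 17. The low place of Trbj2-2 depended on the table. In the M4 table, without Trbj2-6, Trbj2-2 had 221, 178 and 92 counts (5.58% of Trbj counts), and Trbj1-7 was the lowest (3.19%). These counts do not tell a rearranged transcript from an unspliced or germline one.

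**Figure D4:**
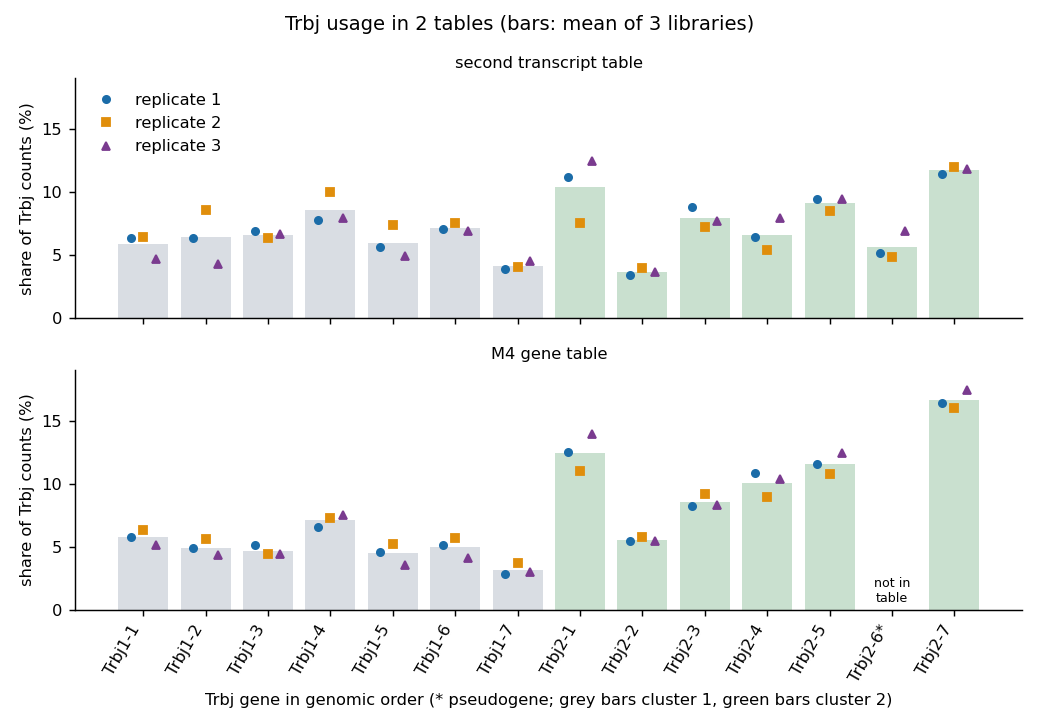
Share of summed Trbj counts (percent) for each J gene in genomic order, in the second transcript table (top) and the M4 gene table (bottom), with a bar for the mean and a point for each library. Trbj2-7 is highest in both, at 11.8% and 16.6%, and cluster 2 bars are taller in the M4 table.

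Cluster 1 took a little under an equal share of J counts in the second table. Its share was 44.0% (95% Wilson interval 41.2 to 46.9) in replicate 1, 50.4% (47.1 to 53.7) in replicate 2 and 40% (35.6 to 44.5) in replicate 3, with a mean of 44.8% ± 5.24. The interval of replicate 2 began above those of the other two, whose intervals overlapped, and all hold counting error only. Without the pseudogene Trbj2-6 the mean was 47.4% ± 5.09.

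The M4 table gave cluster 1 a lower share, at 35.0% (33.5 to 36.5), 38.4% (36.7 to 40.1) and 32.1% (29.9 to 34.4), with a mean of 35.2% ± 3.12. The libraries kept their order, with replicate 2 highest and replicate 3 lowest. Both clusters had more counts in M4, and cluster 2 rose more. Its M4 counts per gene were 3.85 to 5.42 times those of the other table, against 2.43 to 3.51 times in cluster 1. In TPM of the second table the cluster 1 share was 42.9%, 49.9% and 39.8% (44.2% ± 5.17), so replicate 2 lay on either side of an equal split by counts and by TPM. The M4 shares lay below it in all 3 libraries.

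The constant genes give a second reading of cluster choice, since Trbc1 follows cluster 1. Trbc1 (chromosome 6, 41538218 to 41539881) held 33.9%, 34.9% and 33.3% of Trbc expected counts (34.0% ± 0.80) and 35.2% ± 0.81 of Trbc TPM. By the second table it held 32.8% ± 0.70, and the M4 counts gave it 40.8% ± 0.62. Trbc1 was highest in replicate 2 in all of these readings, as cluster 1 J segments were, but its expected-count share ranged only from 33.3% to 34.9%. The coding sequences of Trbc1 and Trbc2 are closely similar, so the split between them rests on the reads that differ.

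**Figure D5:**
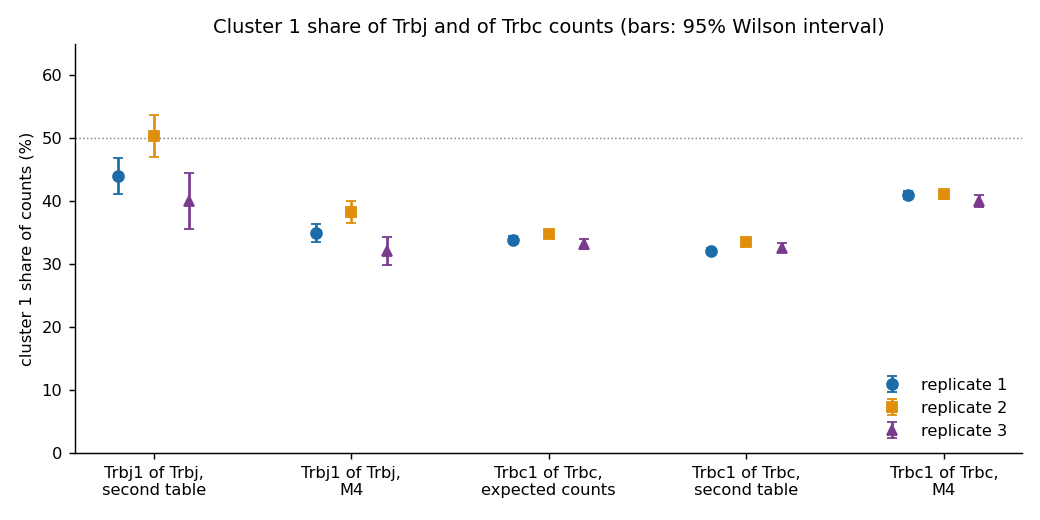
Share of counts on cluster 1 (percent, with 95% Wilson intervals) for J genes in 2 tables and for constant genes in 3 tables, with a point for each library and a dotted line at 50%. Replicate 2 is the highest library in each column, though level with replicate 1 for Trbc1 in the M4 table. The J shares of the second table lie above those of the M4 table.

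The genes whose proteins cut the DNA were at the floor, Dntt lay a little above it, and end-joining genes were present. Rag1 and Rag2 had 0 counts in all libraries, which allows up to 3 counts each, and Dntt had 10, 6 and 5. Of 13 recombination and end-joining genes, 10 were at 1 TPM or more in every library, among them the DNA end-binding genes Xrcc5 (22.5 ± 4.11 TPM) and Xrcc6 (44.6 ± 12.6 TPM). The CD3 chains, which carry the receptor's signal, were all present, with 1101 ± 263 TPM for Cd3e, and their summed TPM of 3463, 3408 and 2103 was lowest in replicate 3, as the Trbv sum was. All 6 factors of the beta enhancer and promoters were at 1 TPM or more, led by Ets1 with 653, 861 and 630 TPM. By the sampling-noise test 4 of 4 CD3 chains, 7 of 10 tested recombination and end-joining genes and 4 of 6 of these factors varied between libraries, against the 65.3% of all genes. With the trended dispersion added, 0 genes of these 3 lists were called.

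The label was checked against markers of Treg and of other cells that rearrange or carry beta chains. All 5 Treg markers were detected, with Foxp3 at 29.5, 28.7 and 49.8 TPM. Ctla4 stood at 190, 250 and 612 TPM. It was the 1 of these 5 called with the trended dispersion added, against 1.32% of all genes. Cd4 stood at 327 ± 89.2 TPM, Cd8a at 1.32 ± 0.75 and Cd8b1 at 13.4 ± 0.94. Trdc, the delta constant gene, was at 2.17 ± 0.46 TPM against 2698 ± 562 for Trac, and Sox13 and Zbtb16 had 0 counts in all libraries. Other genes of these marker lists were present. In the gamma delta list, 3 of 5 were at 1 TPM or more in every library, with Trgc1 at 18.8, 18.0 and 5.43 TPM and Trgc2 at 9.05 ± 2.21. In the NKT or MAIT list it was 1 of 4, Il18r1 at 72.0 ± 14.3 TPM, and in the immature thymocyte list 1 of 5, Cd1d1 at 85.5 ± 11.2 TPM.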

How the data were processed

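PolyA RNA-seq of activated Treg was deposited as 3 libraries of 1 group, labelled technical replicates 1, 2 and 3. The authors' main gene table, on annotation release M21 and mm10, holds expected counts and TPM per library, computed from transcriptome alignments per the file headers and notes deposited with them. A second deposited transcript table holds estimated counts and TPM taken straight from reads and an index. The authors' M4 gene table holds whole-number counts from genome alignments. Their programs are not named in the sources used, and no scaling between libraries was applied.

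Members and lists were chosen with earlier results of these data known. Shares were taken within a library, from expected counts and from TPM, with 95% Wilson intervals, and summarised as mean and SD. The D and J genes have an effective length of 0 in the main gene table, so the J result, planned on expected counts, used the second table's estimated counts summed per gene. M4 lists 36 of the 51 members. The floor of 3 counts equals 0.273, 0.309 and 0.450 CPM. The intervals and the floor hold only counting error, as without molecular identifiers several reads may come from 1 molecule.

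For the test between libraries, expected counts were rounded and set against TMM sizes (edgeR 4.0.16), with a mean of at least 10 counts and an adjusted p of 0.05. The code was tested on simulated data. Alternatives were DESeq2 1.42.0 size factors, total count, the Trbv total, no filter, edgeR's trended dispersion, the other tables and leaving out each library. Named genes were the 10 V genes with the highest count shares, other V genes by range and ends, all D and J genes and V pseudogenes with a mean of at least 10 counts. The order by TPM share, the stretches of the locus and the 5% and 2% bounds were chosen after the values were seen. Sequences came from the M21 transcripts with Python 3.11.15 and Biopython 1.88, and older names from RefSeq (GRCm38.p6).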

Additional observations from a re-analysis of the deposited data

Results flagged for a closer look

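Trbd1 and Trbd2 have 0 counts in both M21 tables of every library, yet the M4 gene table, which the comparisons above used for V and J genes only, holds counts for them. Trbd2 had 188, 115 and 68 counts there (mean 124) and Trbd1 had 115, 91 and 27 (mean 77.7). Both D segments have an effective length of 0 in the main gene table. The limit of 3 counts given above for a count of 0 therefore does not apply to them there. At 12 and 14 bases, the D segments are shorter than the 31-base windows used above to compare V genes. Trbd2 was above Trbd1 in each of the 3 libraries.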

How the results depend on the processing

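Count shares put Trbv3 (10.6%) over Trbv13-2 (8.88%), and TPM shares put Trbv13-2 (11.5%) over Trbv3 (8.27%). By the second transcript table the 5 leading V genes held 40.9% of Trbv counts, Trbv CPM was 690, Trbv counts per 100 Trbc counts were 32.2, the effective number of V genes was 18.0 and 27 of 36 members were called, above rather than below the 60.4% of all genes. TPM gave an effective number of 18.0, summed subgroups 13.1, the inverse Simpson index 15.6 and M4 counts 16.8. M4 counts, chosen after seeing the data, gave 76.3 Trbv per 100 Trbc counts and a J cluster 1 share of 35.2%. The sampling-noise test called 8489 genes and 11 members. The trended dispersion called 171 genes and 0 members, and with the Trbv scale added, after seeing the data, 355 and 0. The Trbv scale alone called 7 members. Leaving out 1 library in turn gave 4186 to 6994 genes and 5 to 8 members called, lowest without replicate 3. The causes were not tested. Tables differ in what they count. Replicate 3, whose omission gave the fewest calls, had the fewest counts and also stood apart over all genes. The chi-square per degree of freedom was 30.7 and 30.3 against replicates 1 and 2, and 11.4 between those. No paired analysis was possible because there is 1 group. J and D values rest on few counts, and Trbv30, Trbv24 and Trbv21 on under 25 per library. The split of Trbv12, Trbv13 and Trbc genes depends on how a table assigns shared reads. The J share could not be computed from expected counts or main TPM.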
